A study of Mus musculus with 11 samples.

Results

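The genes described here encode the enzymes that make serine, asparagine and the proline precursor in the cell, the mitochondrial enzymes that draw one-carbon units from serine, and 2 transcription factors of the amino acid response, Atf4 and Ddit3. They were taken from the array by gene symbol, and which genes to name was chosen by results of these same arrays known earlier. Of 10 genes in the set (Phgdh, Psat1, Psph, Shmt2, Mthfd2, Asns, Aldh18a1, Pycr1, Atf4 and Ddit3), 9 were each read by 1 transcript cluster that carries that symbol alone, among 19946 genes tested. Pycr1 matched no transcript cluster in the annotation used and was not analysed here. Where a gene has several clusters, the one selected on the highest mean level over all arrays is used, a choice that did not arise for these 9, whose mean levels over the 11 arrays ran from 7.89 for Ddit3 to 10.34 for Asns on the log2 scale. A further cluster is annotated to both Phgdh and the pseudogene Gm6756 and was left out. No filter on dim genes was applied.

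Total RNA of the rectal mucosa was read on Affymetrix Mouse Gene 1.0 ST arrays in 11 mice aged 10 weeks, each with its own array. The groups were mutant mice of the α6ΔIEC-TAM line given tamoxifen (n = 4), mutant mice of that line given NaCl in its place (n = 4), and wild-type control mice given tamoxifen (n = 3). Tamoxifen (10 mg per day, every other day within 5 days, first dose at 8 weeks) is meant to delete Itga6, the gene of integrin α6, in intestinal epithelial cells, and mice were examined 15 days after that dose. What promoter drives the deletion, and whether control mice carry any part of the system, is not given in the sources used here. Males were 1 of 4 mice in each mutant group and 2 of 3 control mice. Values are the authors' log2 levels, and differences are in log2 units unless a fold is named.

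Groups are called by their labels throughout, although the targeted gene itself did not follow them. Itga6 read 11.75 to 11.93 in mutant tamoxifen, 11.28 to 11.49 in mutant NaCl and 11.15 to 11.52 in control tamoxifen, so that it was higher in the group meant to have lost it (limma, difference from control tamoxifen 0.42, adjusted p = 0.0095). Against mutant NaCl the difference was 0.41 (adjusted p = 0.0053). The position of its probes relative to the deletion is not known, which means that this signal does not check the labels, and each direction below is that of groups as labelled. The 12 epithelial markers examined had a mean level of 12.19 to 12.32 in mutant tamoxifen, 12.06 to 12.09 in mutant NaCl and 12.00 to 12.13 in control tamoxifen. Against control tamoxifen 3 of 12 were higher (limma), beside 12.9% of all genes. These were Krt20, Krt18 and Krt19 (0.70, 0.38 and 0.16, adjusted p = 0.00601, 0.000722 and 0.0378). Epcam, Krt8 and Vil1 were not past the threshold (-0.04, 0.09 and 0.16, adjusted p = 0.657, 0.0529 and 0.167). The samples are pieces of mucosa, in which fewer cells of a type and less RNA per cell cannot be told apart.

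Serine is made from the glycolytic intermediate 3-phosphoglycerate in 3 steps, catalysed by Phgdh, Psat1 and Psph, and Shmt2 then passes its side carbon to folate inside mitochondria, where Mthfd2 oxidises it towards formate for nucleotide synthesis. Asns makes asparagine from aspartate with glutamine as the nitrogen donor, and Aldh18a1 starts proline synthesis from glutamate. When amino acids run short or unfolded protein accumulates, phosphorylation of the initiation factor eIF2α favours translation of the Atf4 mRNA, and the ATF4 protein binds composite C/EBP-ATF elements in the promoters of such enzymes and of amino acid carriers and aminoacyl-tRNA synthetases. Ddit3 encodes CHOP, a transcription factor induced downstream of ATF4 in prolonged stress. Dividing cells draw on these pathways for protein and nucleotide synthesis.

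Most of the enzymes rose together in mutant tamoxifen. Psat1 was 2.08-fold, Asns 2.06-fold and Mthfd2 1.9-fold higher than in control tamoxifen, Shmt2, Phgdh and Aldh18a1 were 1.4-fold to 1.5-fold higher, Atf4 1.19-fold, and Ddit3 was not past the threshold. Against control tamoxifen 7 of 9 members were higher and 0 lower (limma over all genes, adjusted p under 0.05). Of the 19946 genes tested, 12.9% were called higher and 11.8% lower. Against mutant NaCl 8 of 9 were higher and 0 lower, beside 12.5% of all genes higher and 10.7% lower. The median difference of the members was 0.49 against control tamoxifen and 0.55 against mutant NaCl, and the median over all genes was -0.02 and -0.01. Both comparisons use the same mutant tamoxifen arrays, and the members were named with earlier results of these arrays known, so the counts describe the set and are not independent evidence about it. In both comparisons at once 7 of 9 members were higher, beside 9.9% of all genes. At an unadjusted p under 0.05 there were 8 of 9 in each, beside 37.3% of all genes against control tamoxifen and 34.7% against mutant NaCl. All mutant tamoxifen arrays lay above all control tamoxifen arrays in 8 of 9 members and 17.3% of all genes, and above all mutant NaCl arrays in 8 of 9 members and 14.2% of all genes.

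For the 3 members with the largest differences from control tamoxifen, the promoter windows in RefSeq (build GRCm38.p6, 250 bases before to 50 after the start given there, 5′ to 3′ on the gene's strand) are shown, because this element is the known binding sequence of ATF4. Capitals mark matches, on either strand, to TGATGNAA, the core of the C/EBP-ATF element, and to CCAAT, the box bound by NF-Y. The windows shown are chr19:15925010-15925309 (minus strand) for Psat1, chr6:7693160-7693459 (minus strand) for Asns and chr6:83317555-83317854 (minus strand) for Mthfd2.
Psat1: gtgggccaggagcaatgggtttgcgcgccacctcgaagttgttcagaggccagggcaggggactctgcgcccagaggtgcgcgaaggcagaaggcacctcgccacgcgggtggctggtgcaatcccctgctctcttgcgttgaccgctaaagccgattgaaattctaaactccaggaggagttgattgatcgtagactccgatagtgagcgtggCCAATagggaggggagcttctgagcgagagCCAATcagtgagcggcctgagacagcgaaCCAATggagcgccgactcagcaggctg
Asns: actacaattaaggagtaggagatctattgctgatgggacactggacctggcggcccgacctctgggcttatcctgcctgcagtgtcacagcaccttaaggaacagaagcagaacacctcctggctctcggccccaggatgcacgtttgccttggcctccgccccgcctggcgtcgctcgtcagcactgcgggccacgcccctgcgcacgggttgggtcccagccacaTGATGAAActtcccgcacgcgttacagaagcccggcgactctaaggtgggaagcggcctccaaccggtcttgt
Mthfd2: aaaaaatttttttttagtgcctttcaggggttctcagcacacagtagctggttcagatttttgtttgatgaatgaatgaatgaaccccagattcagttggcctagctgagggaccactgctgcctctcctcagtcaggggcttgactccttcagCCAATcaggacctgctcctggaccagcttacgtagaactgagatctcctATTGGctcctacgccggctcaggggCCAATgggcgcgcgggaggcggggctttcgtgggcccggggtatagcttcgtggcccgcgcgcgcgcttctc
In the Asns window TGATGAAA begins 23 bases before the start. The Psat1 window shown holds CCAAT 3 times, and the Mthfd2 window holds it 3 times, of which 1 is on the other strand, and neither holds TGATGNAA. RefSeq gives another Psat1 window, chr19:15924573-15924872, which is not shown and holds neither motif. RefSeq gives windows for all 10 genes, and those of Asns and Pycr1 hold TGATGNAA, which is 2 of 10, where 4.51% of 26994 genes with a window have it. The CCAAT box is in 7 of 10, against 41.0% of all such genes. It is also in 10 of 12 serine and glycine genes outside the set, a higher share than in the set. For the other lists it is in 7 of 13 synthetases, 11 of 22 ATF4 target genes and 7 of 15 folate genes. Purine genes have it in 5 of 12, proline, glutamate and aspartate genes in 4 of 11, and regulators of ATF4 in 3 of 11. The third motif searched, the E-box CACGTG, is in 1 of 10, Aldh18a1, against 8.09% of all such genes. Among other genes of the response the share with TGATGNAA was 9 of 22 for ATF4 target genes and 5 of 13 for cytosolic aminoacyl-tRNA synthetases. It was 1 of 11 for proline, glutamate and aspartate genes, 1 of 12 for purine genes, 0 of 12 for serine and glycine genes, 0 of 15 for folate genes and 0 of 11 for regulators of ATF4. These are matches of letters and not sites shown to be bound, and no match says only that the letters are not in that window.

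Phgdh, which oxidises 3-phosphoglycerate in the first step of serine synthesis, read 8.46, 8.59, 8.64 and 8.70 in mutant tamoxifen, 8.12, 8.12, 7.94 and 8.02 in mutant NaCl, and 8.05, 8.12 and 8.15 in control tamoxifen. Every mutant tamoxifen array lay above all 7 others. The difference was 0.49 from control tamoxifen (SE 0.076, limma adjusted p = 0.00154) and 0.55 from mutant NaCl (SE 0.066, adjusted p = 0.000376). Psat1, the aminotransferase of the second step, read 8.96, 8.93, 8.93 and 9.25 in mutant tamoxifen, 8.17, 8.24, 7.93 and 8.14 in mutant NaCl, and 7.47, 8.16 and 8.04 in control tamoxifen. Mutant tamoxifen lay above all other arrays here too, mutant NaCl and control tamoxifen overlapped, and control replicate 1 was the lowest array of all. Psat1 was 1.06 above control tamoxifen (SE 0.15, limma adjusted p = 0.00115) and 0.89 above mutant NaCl (SE 0.13, adjusted p = 0.00118), and without control replicate 1 the first of these was 0.88. Psph, the phosphatase of the last step, read 8.03, 8.17, 8.15 and 8.27 in mutant tamoxifen, 7.94, 7.97, 7.84 and 7.91 in mutant NaCl, and 7.83, 7.98 and 7.98 in control tamoxifen. Mutant tamoxifen lay above the other groups by a small margin, and mutant NaCl and control tamoxifen overlapped. It was 0.24 above mutant NaCl (SE 0.064, limma adjusted p = 0.0216), and the 0.21 above control tamoxifen did not pass (SE 0.074, adjusted p = 0.0628). Those calls for Psph were close to the threshold. The control comparison passed without mutant tamoxifen replicate 1 (0.25, adjusted p = 0.0287), and the NaCl comparison did not pass without mutant tamoxifen replicate 2, 3 or 4 (0.24, 0.23 and 0.20, adjusted p = 0.0524, 0.0679 and 0.0564) or mutant NaCl replicate 3 (0.21, adjusted p = 0.0607).

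**Figure D1:**
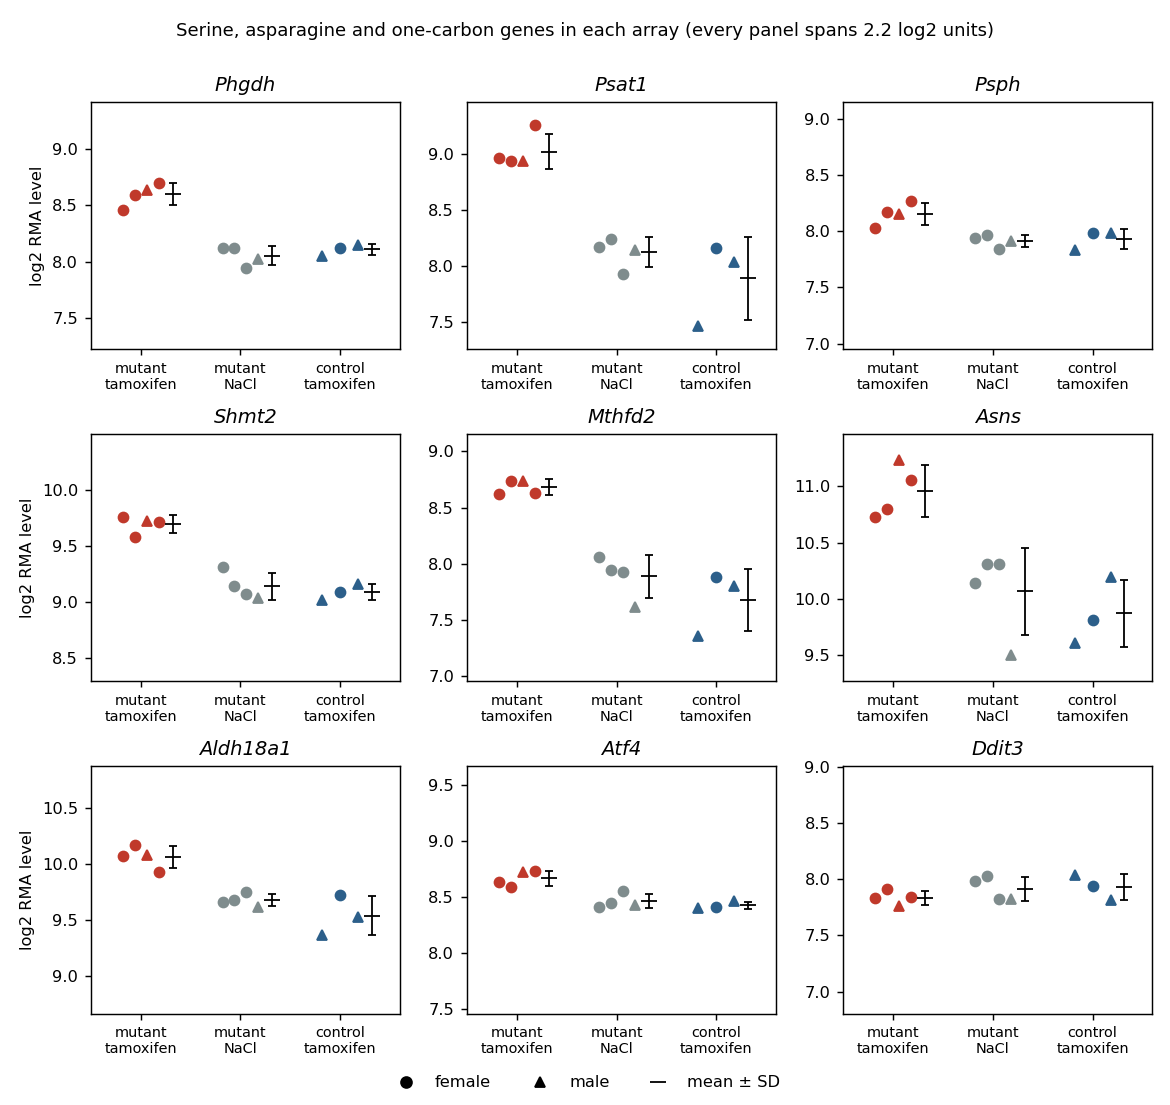
Log2 level of the 9 measured members in each array (vertical axis) by group, with circles for female and triangles for male mice and bars for the mean ± SD of a group (n = 4 mutant tamoxifen, 4 mutant NaCl, 3 control tamoxifen). In 8 of the 9 panels all 4 mutant tamoxifen arrays lie above the other 7, and in the Ddit3 panel the groups overlap.

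Shmt2, the mitochondrial serine hydroxymethyltransferase, read 9.76, 9.58, 9.72 and 9.71 in mutant tamoxifen, 9.31, 9.14, 9.07 and 9.04 in mutant NaCl, and 9.02, 9.09 and 9.16 in control tamoxifen. Mutant NaCl and control tamoxifen overlapped, and mutant tamoxifen lay above both. The difference was 0.59 from control tamoxifen (SE 0.079, limma adjusted p = 0.000804) and 0.55 from mutant NaCl (SE 0.069, adjusted p = 0.000443). Mthfd2, the mitochondrial methylenetetrahydrofolate dehydrogenase that is low in most resting adult tissues, read 8.62, 8.74, 8.74 and 8.63 in mutant tamoxifen, 8.06, 7.95, 7.93 and 7.62 in mutant NaCl, and 7.36, 7.88 and 7.80 in control tamoxifen. Every mutant tamoxifen array was higher than every other array. Mthfd2 was 0.92 above control tamoxifen (SE 0.12, limma adjusted p = 0.000724) and 0.79 above mutant NaCl (SE 0.11, adjusted p = 0.000618), and both calls stood in all 21 alternative settings, with the first at 0.76 to 1.00.

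Asns, asparagine synthetase, read 10.73, 10.80, 11.23 and 11.06 in mutant tamoxifen, 10.14, 10.31, 10.31 and 9.50 in mutant NaCl, and 9.61, 9.81 and 10.19 in control tamoxifen. The arrays within a group were spread widely, with SDs of 0.229 in mutant tamoxifen, 0.386 in mutant NaCl and 0.296 in control tamoxifen, and mutant tamoxifen lay above every other array. The difference was 1.04 from control tamoxifen (SE 0.22, limma adjusted p = 0.0072) and 0.89 from mutant NaCl (SE 0.19, adjusted p = 0.00756). Against control tamoxifen Asns did not pass without mutant tamoxifen replicate 3, the male of that group (0.76, adjusted p = 0.0622), or without control replicate 2, the female of its group (0.90, adjusted p = 0.0657). Aldh18a1, which makes the shared precursor of proline and ornithine, read 10.07, 10.17, 10.08 and 9.93 in mutant tamoxifen, 9.66, 9.68, 9.75 and 9.62 in mutant NaCl, and 9.37, 9.72 and 9.53 in control tamoxifen. All mutant tamoxifen arrays were higher than the rest. It was 0.48 above control tamoxifen (SE 0.081, limma adjusted p = 0.00227) and 0.38 above mutant NaCl (SE 0.07, adjusted p = 0.00339).

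Of the 2 transcription factors Atf4 was higher and Ddit3 did not pass the test. Atf4 read 8.63, 8.59, 8.72 and 8.73 in mutant tamoxifen, 8.41, 8.45, 8.55 and 8.43 in mutant NaCl, and 8.40, 8.41 and 8.46 in control tamoxifen, with no overlap between mutant tamoxifen and the others. The difference was 0.25 from control tamoxifen (1.19-fold, SE 0.062, limma adjusted p = 0.0151) and 0.21 from mutant NaCl (1.15-fold, SE 0.054, adjusted p = 0.0189). These calls were lost against control tamoxifen without mutant tamoxifen replicate 3 (0.22, adjusted p = 0.0943) or control replicate 2 (0.25, adjusted p = 0.0822), and against mutant NaCl without mutant tamoxifen replicate 3 or mutant NaCl replicate 1 or 4 (0.19 in each, adjusted p = 0.0708, 0.0538 and 0.0636). Arrays measure the Atf4 mRNA and not the protein, whose level is set largely by translation. Ddit3 read 7.83, 7.91, 7.76 and 7.84 in mutant tamoxifen, 7.98, 8.03, 7.82 and 7.82 in mutant NaCl, and 8.04, 7.94 and 7.81 in control tamoxifen. Its groups overlapped, with differences of -0.13 from control tamoxifen (95% interval -0.30 to 0.04, limma adjusted p = 0.247) and -0.08 from mutant NaCl (interval -0.23 to 0.07, adjusted p = 0.453). As folds these intervals ran from 0.811 to 1.03 against control tamoxifen and from 0.854 to 1.05 against mutant NaCl.

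**Figure D2:**
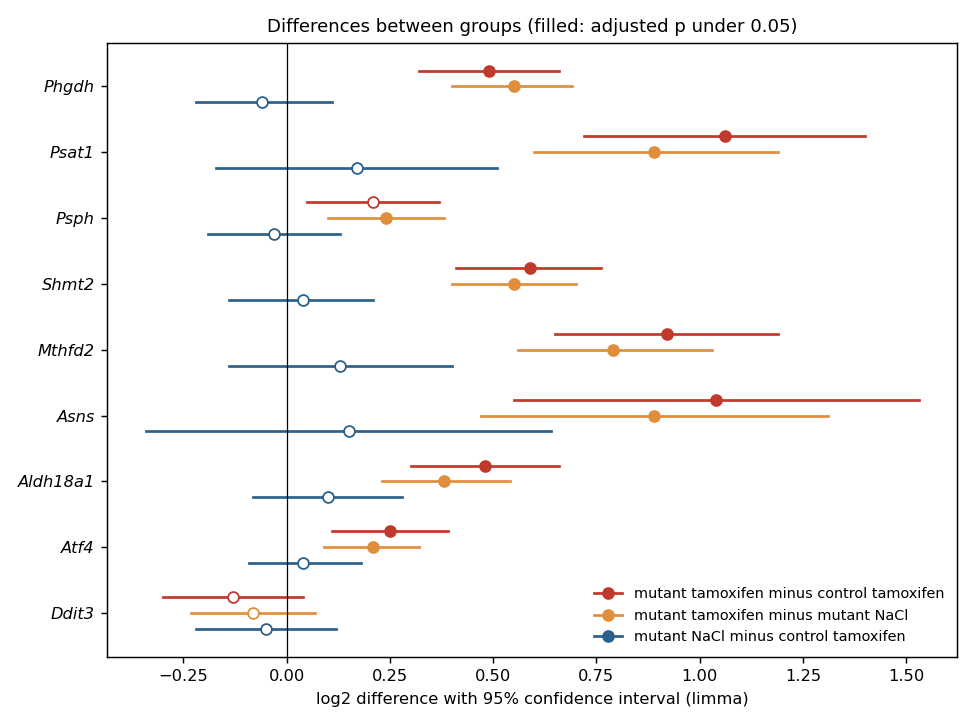
Log2 difference between groups for each measured member (horizontal axis) with its 95% confidence interval, in 3 comparisons set apart by colour, with filled points for adjusted p under 0.05 (limma, 11 arrays). The differences of mutant tamoxifen reach 1.06 from control tamoxifen and 0.89 from mutant NaCl, both for Psat1, and all intervals of mutant NaCl minus control tamoxifen include 0.

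The mutant mice that received NaCl did not differ detectably from control mice in these genes. These groups differ in both genotype and drug, whose effects cannot be told apart here. In mutant NaCl minus control tamoxifen 0 of 9 members passed with limma and 0 had an unadjusted p under 0.05, beside 0.0% of all genes called and 8.15% of all genes at an unadjusted p under 0.05. All mutant NaCl arrays lay above all control arrays in 0 of 9 members and 2.82% of all genes. The differences ran from -0.06 for Phgdh to 0.17 for Psat1, with a median of 0.04. The widest interval, that of Asns, reached from -0.34 to 0.64, which as a fold is up to 1.56, and the narrowest, that of Atf4, from -0.09 to 0.18. In order of group means mutant tamoxifen was highest for 8 of the 9 members, and the order of the other 2 groups below it was within their spread. Ddit3, with control tamoxifen at the top, had no order beyond the spread. Every mutant tamoxifen array exceeded all 7 other arrays in 8 of 9 members, and in 12.0% of all genes tested. Control replicate 1 had the lowest level of its group in 8 of 9 members.

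Sex was uneven over the groups and was therefore a term of the fit, which called 0 of 9 members between males and females and 7 genes in all. With female arrays alone, which leaves 1 control mouse, 4 of 9 members were higher than in control tamoxifen (limma), beside 3.93% of all genes. The members that lost their call there were Phgdh (0.47, adjusted p = 0.0578), Aldh18a1 (0.34, adjusted p = 0.0886) and Atf4 (0.24, adjusted p = 0.181). Against mutant NaCl, with 3 females in each group, 6 of 9 were higher, beside 8.73% of all genes, and Psph and Atf4 were not past the threshold (0.24 and 0.18, adjusted p = 0.0806 and 0.118). Of the genes named below, Aldh1l2, Mthfd1l, Fpgs, Ggh, Amt, Ppp1r15b and Gpt2 also lost their call against control tamoxifen with female arrays alone. Their differences there were 0.36, 0.42, 0.42, -0.43, -0.24, 0.21 and -0.54. Against mutant NaCl, female arrays alone left Sptlc1 (0.17, limma adjusted p = 0.0847), Fpgs (0.25, adjusted p = 0.0673) and Gpt2 (-0.41, adjusted p = 0.102) not past the threshold.

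The rest of the one-carbon pathway was read from a list of 16 measured folate genes outside the set. There 9 were higher and 3 lower than in control tamoxifen (median difference 0.34, limma), beside 12.9% and 11.8% of all genes. Against mutant NaCl 10 were higher and 2 lower (median 0.27), beside 12.5% and 10.7% of all genes. Partners of Shmt2 and Mthfd2 in mitochondria were among the higher ones. Aldh1l2, which oxidises formyl-folate in mitochondria, read 7.19, 7.10, 7.17 and 7.20 in mutant tamoxifen, 6.49, 6.70, 6.67 and 6.57 in mutant NaCl, and 6.66, 6.80 and 6.58 in control tamoxifen. Mutant tamoxifen lay above the other groups, which overlapped. Its difference was 0.45 from control tamoxifen (limma adjusted p = 0.00151) and 0.56 from mutant NaCl (adjusted p = 0.000204). Mthfd1l, which releases formate from the mitochondrial folate pool, was 0.72 and 0.79 higher (adjusted p = 0.00393 and 0.00112). Fpgs, which adds the glutamate tail that keeps folate in the cell, was 0.50 and 0.29 higher (adjusted p = 0.0013 and 0.00992). The 2 genes of folate supply in the list that moved most went the other way. Slc46a1, the proton-coupled folate transporter of the intestine, was 1.7-fold lower than in control tamoxifen (-0.76, limma adjusted p = 0.000249) and 1.49-fold lower than in mutant NaCl (-0.58, adjusted p = 0.000397). Ggh, which trims the glutamate tail, was 0.72 and 0.71 lower (limma adjusted p = 0.00248 and 0.00123). Against mutant NaCl the number of higher folate genes was 6 without mutant tamoxifen replicate 3 or without mutant NaCl replicate 2.

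Genes that use or break down serine and glycine were counted apart from the synthesis enzymes. Of 13 such genes, 0 were higher and 3 lower than in control tamoxifen (median 0.00, limma). At an unadjusted p under 0.05 there were 5 of 13, near the 37.3% of all genes. The shares of all genes past the adjusted threshold were 12.9% higher and 11.8% lower. Against mutant NaCl 3 were higher and 3 lower (median 0.06), beside 12.5% and 10.7% of all genes. Srr, which converts L-serine to D-serine, fell by 0.43 against control tamoxifen (limma adjusted p = 0.00328) and by 0.50 against mutant NaCl (adjusted p = 0.000684). Amt, a subunit of the glycine cleavage system, was 0.26 and 0.29 lower (adjusted p = 0.0146 and 0.00439). Sptlc1 was 0.19 higher than in mutant NaCl (limma adjusted p = 0.0126), and its 0.14 above control tamoxifen did not pass (adjusted p = 0.0778). Without mutant tamoxifen replicate 3 Sptlc1 just missed the threshold against mutant NaCl (0.17, adjusted p = 0.0527). The count of genes higher than in control tamoxifen was 1 without mutant tamoxifen replicate 1 and 3 without mutant tamoxifen replicate 4. Against mutant NaCl it was 0 without mutant tamoxifen replicate 3, and 1 without mutant tamoxifen replicate 2, without any 1 of the 3 control arrays, or without mutant NaCl replicate 2, 3 or 4.

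**Figure D3:**
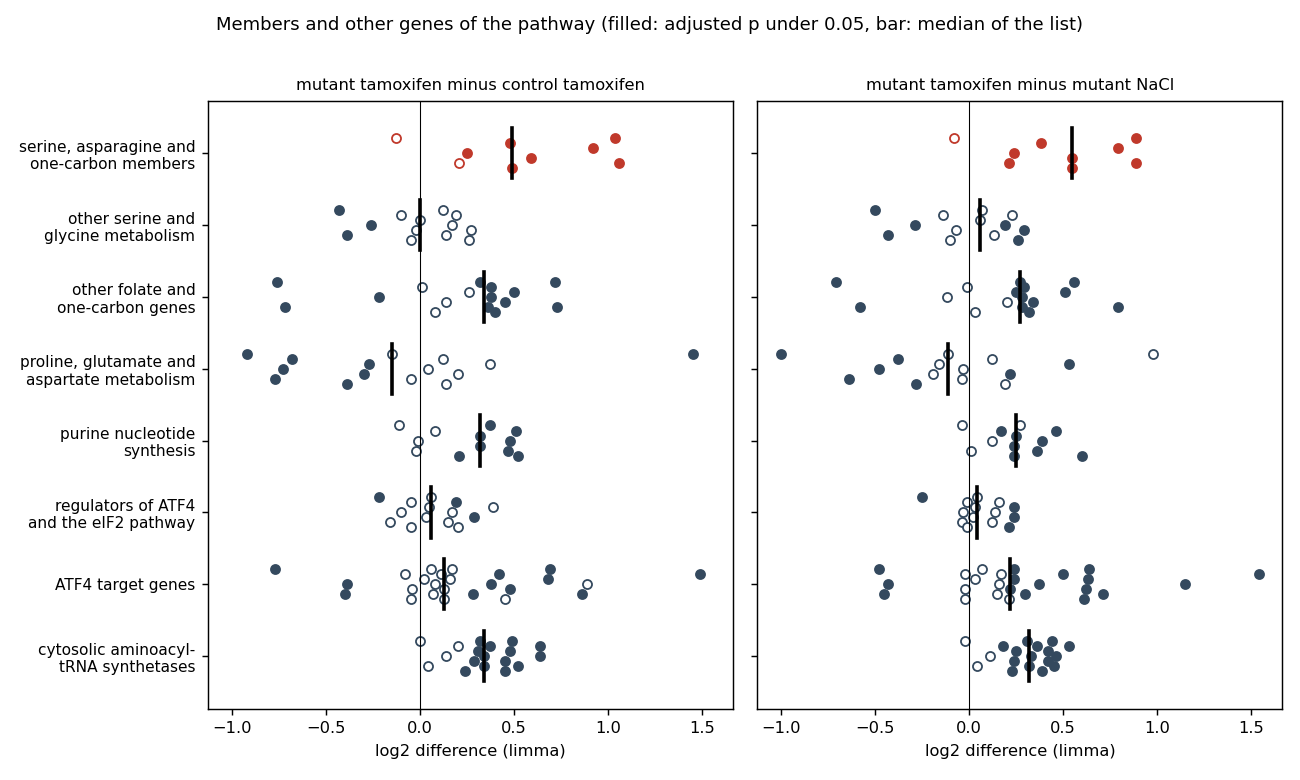
Log2 difference (horizontal axis) of each measured member and of each gene in 7 further lists, for mutant tamoxifen minus control tamoxifen on the left and minus mutant NaCl on the right, with filled points for adjusted p under 0.05 and a bar at each list's median. Aminoacyl-tRNA synthetases and purine synthesis genes lie mostly to the right of 0, with medians of 0.34 and 0.32 on the left, and proline, glutamate and aspartate genes lie to both sides.

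Around Aldh18a1, 15 genes of proline, glutamate and aspartate metabolism were counted. Of these 1 was higher and 7 lower than in control tamoxifen (median -0.15, limma), beside 12.9% and 11.8% of all genes. Against mutant NaCl 2 were higher and 5 lower (median -0.11), beside 12.5% and 10.7% of all genes. Oat, the aminotransferase that makes the same intermediate from ornithine, read 11.01, 10.92, 10.89 and 10.95 in mutant tamoxifen, 11.58, 11.60, 11.65 and 11.51 in mutant NaCl, and 11.81, 11.56 and 11.47 in control tamoxifen. All 4 mutant tamoxifen arrays lay below the others, by 0.68 against control tamoxifen (fold 1.61, adjusted p = 0.000373) and 0.64 against mutant NaCl (fold 1.56, adjusted p = 0.000184). Nags, the acetylglutamate synthase of the urea cycle pathway, was 0.92 and 1.00 lower (adjusted p = 0.00438 and 0.00134), and Gpt, an alanine aminotransferase, 0.73 and 0.38 lower (adjusted p = 0.000961 and 0.0113). The 1 gene higher than in control tamoxifen was Arg1 (1.45, limma adjusted p = 0.018), although its groups overlapped. Against mutant NaCl Arg1 did not pass (0.98, adjusted p = 0.0521). Arg2 was 0.53 higher than in mutant NaCl (adjusted p = 0.00927), and its 0.37 above control tamoxifen did not pass (adjusted p = 0.0697). Prodh, which breaks proline down, was not past the threshold in either comparison (0.14 and 0.19, adjusted p = 0.204 and 0.0601). The count of genes higher than in control tamoxifen was 0 without mutant tamoxifen replicate 3 and 2 without control replicate 3.

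Purine nucleotide synthesis, which consumes the formate that the mitochondrial enzymes release, was higher for most genes listed. Of 12 genes 8 were higher and 0 lower in each comparison, with medians of 0.32 against control tamoxifen and 0.25 against mutant NaCl (limma). Of all genes 12.9% and 12.5% were higher in these comparisons. Without mutant tamoxifen replicate 3, however, the counts of higher purine genes were 4 and 5. Impdh1, the IMP dehydrogenase, was 0.51 and 0.60 higher (adjusted p = 0.00102 and 0.000179), and Prps1, which makes phosphoribosyl pyrophosphate, 0.52 and 0.39 higher (adjusted p = 0.000762 and 0.00142). Paics, an enzyme of the middle of the purine pathway, was not past the threshold (-0.11 and -0.04, adjusted p = 0.413 and 0.769).

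Genes known as targets of ATF4 split into those that rose and those that did not. Of 25 measured outside the set, 8 were higher and 3 lower than in control tamoxifen (median 0.13, limma), beside 12.9% and 11.8% of all genes. Against mutant NaCl 13 were higher and 3 lower (median 0.22), beside 12.5% and 10.7% of all genes. Without mutant tamoxifen replicate 3 the first count of higher genes was 5. The cystine-glutamate exchanger Slc7a11 rose most in this list, reading 8.87, 9.04, 8.79 and 9.25 in mutant tamoxifen, 7.88, 7.42, 7.23 and 7.27 in mutant NaCl, and 6.75, 7.87 and 7.33 in control tamoxifen. Mutant tamoxifen lay well above the other groups, which overlapped, with a 2.81-fold higher level than in control tamoxifen (limma adjusted p = 0.00085) and a 2.9-fold higher level than in mutant NaCl (adjusted p = 0.000282). Slc7a5, the large neutral amino acid carrier, was 0.86 and 0.61 higher (adjusted p = 0.000556 and 0.00133). Eif4ebp1, a repressor of cap-dependent translation, was 0.42 and 0.50 higher (adjusted p = 0.00212 and 0.000387), and Stc2, a secreted glycoprotein, 0.68 and 0.71 higher (adjusted p = 0.00229 and 0.000849). The glutamine carrier Slc1a5, in contrast, fell by 0.40 and 0.45 (adjusted p = 0.00178 and 0.000437). The largest fall in this list was that of Gpt2, an alanine aminotransferase gene also counted in the proline list. It was 0.77 lower than in control tamoxifen (limma adjusted p = 0.00653) and 0.48 lower than in mutant NaCl. Both calls were lost without mutant tamoxifen replicate 3 (-0.62 and -0.38, adjusted p = 0.0581 and 0.115). The mutant NaCl call was also lost without mutant tamoxifen replicate 2 or 4, or any single mutant NaCl array. Trib3 and Chac1 were not past the threshold. They were at 0.07 and 0.13 against control tamoxifen (adjusted p = 0.507 and 0.279) and -0.02 and 0.17 against mutant NaCl (adjusted p = 0.851 and 0.11). Ero1a was 0.48 and 0.62 higher (limma adjusted p = 0.0131 and 0.00174). Atf3 was 1.15 higher than in mutant NaCl (adjusted p = 0.015), and its 0.89 above control tamoxifen did not pass (adjusted p = 0.0723).

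The cytosolic aminoacyl-tRNA synthetases, which charge tRNAs with the amino acids these enzymes make, were mostly higher. Of 18 measured, 14 were higher and 0 lower than in control tamoxifen (median 0.34, limma), beside 12.9% of all genes higher. Against mutant NaCl 15 were higher and 0 lower (median 0.32), beside 12.5% of all genes higher. Without mutant tamoxifen replicate 3 the first of these counts was 6. Wars, for tryptophan, read 11.60, 11.57, 11.70 and 11.59 in mutant tamoxifen, 11.23, 11.15, 11.14 and 11.25 in mutant NaCl, and 10.92, 11.08 and 10.97 in control tamoxifen. It was 0.64 and 0.42 higher (adjusted p = 0.000106 and 0.000328), and Tars, for threonine, 0.64 and 0.53 higher (adjusted p = 0.000567 and 0.0006). Nars, which charges tRNA with the asparagine that Asns makes, was 0.49 and 0.42 higher (adjusted p = 0.000572 and 0.000501). Kars, for lysine, and Qars, for glutamine, were near 0 against control tamoxifen (0.04 and 0.00, adjusted p = 0.656 and 0.972).

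Of 14 genes that regulate ATF4, 2 were higher and 1 lower than in control tamoxifen (median 0.06, limma), beside 12.9% and 11.8% of all genes. Against mutant NaCl 3 were higher and 1 lower (median 0.04), beside 12.5% and 10.7% of all genes. The kinase genes Eif2ak4, which senses uncharged tRNA, and Eif2ak3, which senses unfolded protein, were not past the threshold, with differences of 0.05 and 0.15 from control tamoxifen (adjusted p = 0.623 and 0.0816). Ppp1r15b, a subunit of the phosphatase that reverses eIF2α phosphorylation, was 0.29 and 0.24 higher (adjusted p = 0.00602 and 0.00777), and without mutant tamoxifen replicate 3 the first was 0.25 and just missed the threshold (adjusted p = 0.0513). The counts for this list were unsteady. Against control tamoxifen they were 0 higher and 0 lower without mutant tamoxifen replicate 3, 1 higher without mutant tamoxifen replicate 1, any 1 control array or mutant NaCl replicate 2, and 0 lower without mutant tamoxifen replicate 4, any 1 control array or any 1 mutant NaCl array. Against mutant NaCl they were 1 higher and 0 lower without mutant tamoxifen replicate 3, and 1 higher without mutant NaCl replicate 4.

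Other genes moved in the same arrays. For the counts that follow, 12.9% of all genes were higher and 11.8% lower than in control tamoxifen. Against mutant NaCl these shares were 12.5% and 10.7%. All 19 proliferation genes examined, such as Mki67 and Mcm5, were higher than in control tamoxifen (median 0.77) and 16 of 19 higher than in mutant NaCl (median 0.51, limma). Their mean level was 10.14 to 10.22 in mutant tamoxifen, 9.56 to 9.78 in mutant NaCl and 9.02 to 9.65 in control tamoxifen. In mutant NaCl minus control tamoxifen the proliferation genes had a median of 0.34, with 10 of 19 at an unadjusted p under 0.05 and 0 past the threshold. Of all genes 8.15% were at that p in this comparison and 0.0% past the threshold. The members had a median of 0.04 and 0 of 9 at that p. Their intervals reached up to 0.64 for Asns, 0.51 for Psat1 and 0.40 for Mthfd2. Whether members and proliferation genes differed there was not tested. Neutrophil markers were higher, with 7 of 10 past the threshold in each comparison, and a mean level of 7.61 to 8.10 in mutant tamoxifen, 7.07 to 7.14 in mutant NaCl and 7.04 to 7.25 in control tamoxifen. All 12 smooth muscle markers were lower in each comparison, with a mean level of 11.54 to 11.68 in mutant tamoxifen, 11.98 to 12.25 in mutant NaCl and 12.11 to 12.23 in control tamoxifen. Of the epithelial markers 3 of 12 were higher than in control tamoxifen and 5 of 12 higher than in mutant NaCl. Plasma cell markers had 3 of 10 higher in each comparison, macrophage and dendritic cell markers 2 higher and 3 lower of 13 against control tamoxifen and 2 higher and 0 lower against mutant NaCl, fibroblast markers 1 higher and 1 lower of 10 and then 4 and 4, and squamous markers 1 of 12 higher and then 0. The squamous mean level spread widely within groups, at 8.58 to 10.10 in mutant tamoxifen, 8.78 to 10.00 in mutant NaCl and 6.72 to 10.04 in control tamoxifen. Array levels have no zero, so none of these markers can be called absent. The part of these lists in the members' differences was not tested.

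**Figure D4:**
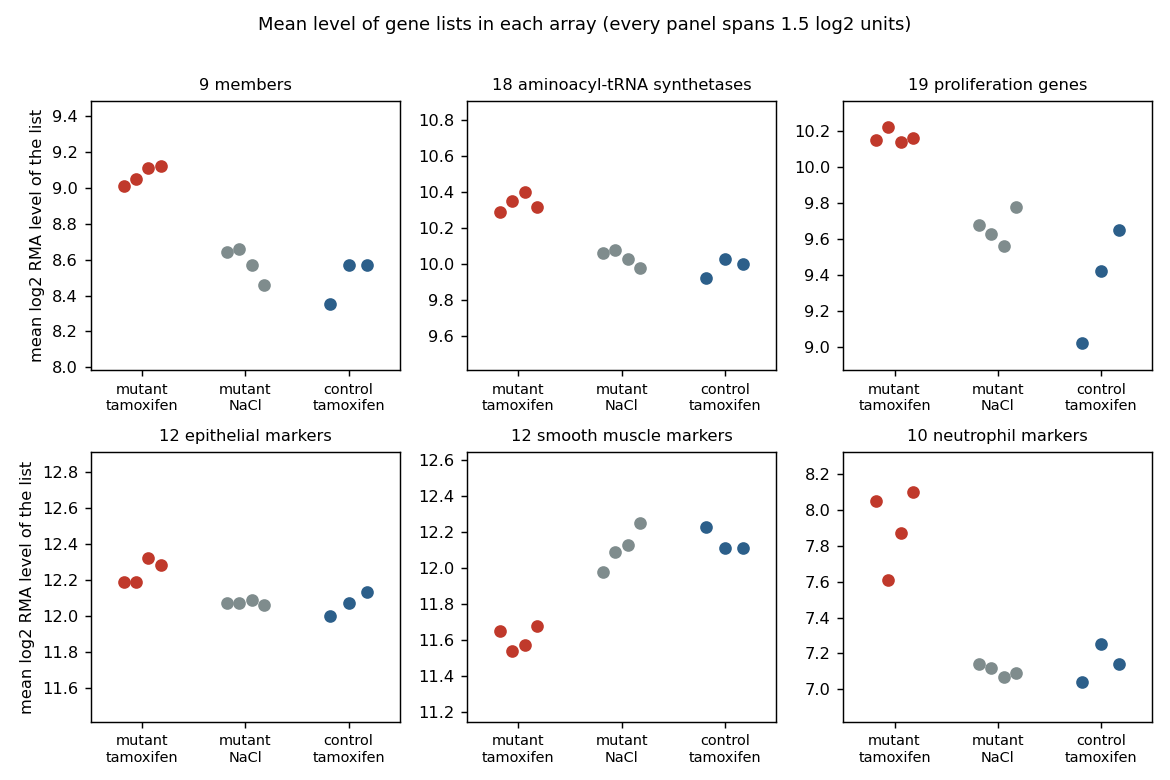
Mean log2 level (vertical axis) of the 9 measured members, of the aminoacyl-tRNA synthetases, and of the proliferation, epithelial, smooth muscle and neutrophil lists, 1 point per array, by group. Mutant tamoxifen lies above both other groups for the members (9.01 to 9.12) and below them for smooth muscle (11.54 to 11.68), and control replicate 1 is the lowest point for proliferation (9.02).

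Taking the members as 1 profile, their mean level centred over the arrays was 0.27, 0.32, 0.37 and 0.39 in mutant tamoxifen, -0.09, -0.08, -0.17 and -0.28 in mutant NaCl and -0.39, -0.17 and -0.17 in control tamoxifen. Shmt2 and Phgdh lay closest to this profile, with root mean square differences of 0.0771 and 0.0823 over the 11 arrays, and Ddit3 and Asns farthest, at 0.32 and 0.303. The 5 named genes outside the set with the most similar profile were Ppp1r14b, an inhibitor of protein phosphatase 1 (0.0347), the proteasome subunit Psmd6 (0.0407), the acyl-CoA synthetase Acsl5 (0.0478), Erh (0.0532) and the chaperonin subunit Cct3 (0.0566). This measure follows the separation of mutant tamoxifen from the other groups, which 12.0% of all genes tested share.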

How the data were processed

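Gene expression was measured in rectal mucosa of 11 mice, 1 array each. The authors deposited log2 values, 1 per transcript cluster and array, made with RMA in Affymetrix Expression Console per the labels. RMA includes quantile normalisation, which gives all arrays the same distribution at probe level and so removes an overall shift between them. Partek is also listed in the submitters' processing notes, without a role, and a genome build is not given in the sources used here.

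Of 35556 transcript clusters, 21797 had 1 gene symbol in the platform annotation, 1613 had several, and the 12146 that it does not list were not used. The cluster with the highest mean per gene gave 19946 genes, of which 19856 matched the RefSeq table GRCm38.p6 by gene ID. All 11 arrays were fitted with limma 3.58.1 in R 4.3.3 (group and sex, trended variance). Tests were two-sided, and p-values were adjusted by Benjamini-Hochberg over the 19946 genes. Array medians were 7.29 to 7.35, and the number of arrays limits the precision. The members and lists were chosen with earlier results of these data known. All members are named, and of each of the 7 pathway lists at most the 4 genes with the smallest p in a comparison among those past the threshold, with at most 2 that did not pass. Ero1a, Atf3, Arg1 and, among the ATF4 targets, Gpt2 are named besides. The steps were tested on simulated data. Alternatives comprised 10 settings and 11 fits that leave out 1 array each.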

Additional observations from a re-analysis of the deposited data

Results flagged for a closer look

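In 4 of the 88 groups of 4 arrays examined, 1 array lay far from the other 3 by Dixon's criterion, which chance alone meets in about 1 in 20 groups. The groups examined were those of the members, their mean and the pathway genes picked by the smallest p. Psat1 read 9.25 in mutant tamoxifen replicate 4, above 8.93, 8.93 and 8.96 in the others of its group. Srr read 8.87 in mutant tamoxifen replicate 4, below 9.04 to 9.07. In mutant NaCl, Adss, an adenylosuccinate synthase gene, read 10.32 in replicate 4, above 10.06 to 10.07, and Gmps, the GMP synthetase gene, read 9.58 in replicate 2, below 9.66 to 9.67.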

How the results depend on the processing

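No paired analysis was possible because the labels give no replicate numbers shared between groups. The number of members higher than in control tamoxifen was 7 of 9 and ran from 5 to 8 when single arrays were left out, with 5 without mutant tamoxifen replicate 3 or control replicate 2. With female arrays alone it was 4, beside 3.93% of all genes higher, against 12.9% as reported, and that share was also over 1.5 times smaller without mutant tamoxifen replicate 3 (6.76%) or control replicate 2 (8.16%). With the lowest 50% of genes left out the share was larger, at 23.8% against control tamoxifen and 23.2% against mutant NaCl (12.5% as reported). Female arrays alone likewise left 2 higher and 1 lower folate genes, 4 purine genes, 4 higher and 1 lower ATF4 targets, 5 synthetases, 3 lower proline list genes and 1 lower serine list gene against control tamoxifen, and 4 higher folate genes and 5 purine genes against mutant NaCl. Apart from these and the counts given beside each list, the counts that moved by over 1.5 times came to 4 genes or fewer, in the serine, proline and ATF4 regulation lists. Against mutant NaCl the number of higher members was 8, with 6 to 8 over all alternatives, and for mutant NaCl minus control tamoxifen 0 throughout. No member past the threshold changed sign in any of the 21 alternatives. Psph passed against control tamoxifen with no sex term (0.22), with median-centred arrays (0.24), without the variance trend (0.21) and with the lowest 50% of genes left out (0.21), and that filter also removed Ddit3. With median-centred arrays 62.5% of all genes called against control tamoxifen were higher, beside 52.3% as reported, and the members' count was 8, beside 15.1% of all genes. The causes were not tested. The number of arrays, and the single female control, limit what these data can separate.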
